A study of Mus musculus with 4 samples.

Results

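Transcripts of the branched-chain ketoacid dehydrogenase (BCKDH) complex, of its kinase and phosphatase and of the mitochondrial aminotransferase were followed in brown adipose tissue of wild-type mice. The 7 genes Bcat2, Bckdha, Bckdhb, Dbt, Dld, Bckdk and Ppm1k were taken by gene symbol from a table of 17259 genes, and all 7 were listed. RNA had been sequenced from 4 libraries, 2 named BAT-Mito and 2 named BAT-total. BAT-Mito came from isolated mitochondria. BAT-total was titled total but given in the treatment label as the tissue that remained without mitochondria, and the study also speaks of total lysates. The labels thus do not settle how far mitochondria had been removed. Mitochondrial RNA was present in both BAT-total libraries, with 51.1% and 59.3% of the counts from the mitochondrial genome. All mice were of the genotype WT, and the labels give neither age nor sex. The labels do not say that the 2 libraries of a group came from separate animals. The p-values below therefore measure the spread between these libraries, which may be technical.

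Branched-chain amino acids are broken down in the mitochondrial matrix. BCAT2 moves their amino group to α-ketoglutarate, and the BCKDH complex then decarboxylates the resulting ketoacids in a step that cannot be reversed. The complex is built around a core of the E2 subunit DBT, to which the E1 heterotetramer of BCKDHA and BCKDHB and the E3 subunit DLD bind. The kinase BCKDK phosphorylates BCKDHA and shuts the complex down, and the phosphatase PPM1K removes the phosphate again. Brown adipose tissue burns these amino acids as one of its fuels for heat production. All 7 proteins are made outside the mitochondrion from nuclear genes and are then imported.

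The start of each coding sequence is shown because it encodes the part of the protein that directs import. Presequences of matrix proteins are typically rich in arginine and poor in acidic residues. The first 90 coding bases (30 codons) were taken from GENCODE M21 transcripts on GRCm38, and codons for arginine are in capitals.
Bcat2: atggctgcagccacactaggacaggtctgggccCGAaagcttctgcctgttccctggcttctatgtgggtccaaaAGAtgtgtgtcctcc
Bckdha: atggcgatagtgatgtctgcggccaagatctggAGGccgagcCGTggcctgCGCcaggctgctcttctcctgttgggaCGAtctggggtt
Bckdhb: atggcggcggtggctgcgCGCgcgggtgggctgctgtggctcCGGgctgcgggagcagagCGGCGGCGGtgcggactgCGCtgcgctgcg
Dbt: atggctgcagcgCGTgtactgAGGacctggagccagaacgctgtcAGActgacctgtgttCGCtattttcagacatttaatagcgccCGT
Dld: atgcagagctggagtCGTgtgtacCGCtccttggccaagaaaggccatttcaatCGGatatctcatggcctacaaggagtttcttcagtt
Bckdk: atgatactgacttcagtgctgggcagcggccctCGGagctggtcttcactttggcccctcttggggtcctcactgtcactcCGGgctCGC
Ppm1k: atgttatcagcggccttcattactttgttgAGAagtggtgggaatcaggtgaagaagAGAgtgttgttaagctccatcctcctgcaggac
All 7 members had at least 2 arginine codons and at most 1 acidic codon (for aspartate or glutamate) in these 30 codons. Over the 7640 coding genes tested, 17.4% met both conditions. Both limits coincide with the extremes of the members themselves, so that this comparison is a description and no test. Bckdhb had the most arginine codons, 6, and Bcat2 and Ppm1k the fewest, 2 each. No acidic codon stood in this stretch in 5 of the 7 members, against 12.4% of the coding genes tested. The later enzymes of the same pathway shared these features in 15 of 17 cases (88.2%).

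On GRCm38, 3 of the 7 genes lie on chromosome 7. Bcat2 is at chr7:45570153-45589711 on the plus strand, Bckdha at chr7:25629946-25658981 on the minus strand and Bckdk at chr7:127904082-127910221 on the plus strand. Bckdhb spans chr9:83925145-84124240 on the plus strand and is the longest of the 7 genes with 199096 bp. Dbt is at chr3:116513070-116549981 (plus), Dld at chr12:31331277-31351453 (minus) and Ppm1k at chr6:57506502-57535468 (minus). Of the 1899 exon bases of Bckdha, 1171 are also exons of B3gnt8, which lies on the opposite strand and had normalised counts of 0 and 0 in BAT-Mito and 4 and 6 in BAT-total. Bcat2 shares 622 of 3900 exon bases with the antisense gene 0610005C13Rik. The libraries appear to have been counted by strand, since 49 of 460 genes (10.7%) whose exons are all covered from the opposite strand were listed with a count, against 1 of 712 (0.140%) covered from the same strand. Stretches of 194 bp in Bckdk, 469 bp in Ppm1k and 115 bp in Dbt match many other genes at 90% identity or more, and whether reads from them were counted was not tested.

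Values are normalised counts, that is gene counts that the authors divided by a size factor for each library. In BAT-Mito the values came in steps of 8.32 (replicate 1) and 6.90 (replicate 2) units, each step being 1 read, so that whole reads could be recovered. Reads assigned to genes numbered 26288871 and 24910434 there, 95.3% and 95.5% of them from the mitochondrial genome. That left 1248730 and 1129485 reads for nuclear genes. In BAT-total the normalised totals were 1590096 and 1905303 and reads could not be recovered. Of the 11 brown adipocyte markers, all were above 0 in every library except Prdm16, at 0 in BAT-Mito replicate 2, with Ucp1 (uncoupling protein 1) at 1290 and 3554 in BAT-Mito and 4819 and 4185 in BAT-total. Marker sums of other organs were higher in both BAT-Mito libraries than in BAT-total. Replicate 1 was the higher for liver and skeletal muscle, and replicate 2 for heart muscle. The 11 hepatocyte markers summed to 15187 normalised counts there, 1388 in replicate 2 and 391 and 157 in BAT-total, and the 10 skeletal muscle markers to 3454, 1098, 309 and 665. The 4 listed heart muscle markers summed to 208 and 745 in BAT-Mito and 7 and 3 in BAT-total. The 4 macrophage markers summed to 183 and 137 in BAT-Mito and 52 and 58 in BAT-total, and the 4 endothelial markers to 84 and 7 against 804 and 863. Among the endothelial markers Egfl7, at 0 and 0 against 75 and 98, was called lower by limma (adjusted p 0.0249), the 1 call among the markers. With edgeR all 4 endothelial markers and 1 brown adipocyte marker (Dio2) were called lower, and 9 hepatocyte, 3 skeletal muscle and 1 heart muscle markers higher. The part of these in the results below was not tested. In bulk RNA, fewer cells of a type and less RNA per cell cannot be told apart.

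Of the 7 members, 5 (Bcat2, Bckdha, Bckdhb, Dbt and Dld) were low in BAT-Mito replicate 1 beyond counting error, against 21.7% of all tested genes, and 1 (Bckdhb) in replicate 2, against 22.3%. These shares are not a like background. In replicate 1 even 0 reads gave an upper limit of 30.7 normalised counts. A gene at or below that in either BAT-total library could not meet the criterion, while all 7 members could. Replicate 2 has such a limit too. Their summed normalised counts were 266 (32 reads) and 1167 (169 reads) in BAT-Mito and 1365 and 1138 in BAT-total. With limma on log2(normalised count + 1), 0 of the 7 members were called lower and 0 higher at an adjusted p under 0.05, against 4.41% lower and 0.803% higher of the 8215 genes tested. At an unadjusted p under 0.05 there was 1 member, Bckdhb, against 18.1% of all tested genes. With edgeR's quasi-likelihood test and with DESeq2 on reads, Bckdhb was also the 1 member called lower, against 4.02% and 3.05% of genes. The median log2 fold change of the members was -1.10, and that of all tested genes was -1.23. Their nearness averages opposite departures, since the medians were -0.06 and -0.92 without BAT-Mito replicate 1 and -2.50 and -1.05 without replicate 2. Both BAT-Mito libraries lay below both BAT-total libraries for 2 members, Bckdhb and Bckdk, as they did for 52.1% of all tested genes. None lay above both, where 8.59% of all tested genes did. The count of members called lower turned on single libraries and on the scaling. It was 1 (Bckdhb) without BAT-Mito replicate 1, where 41.1% of all genes were called lower, and 5 without BAT-Mito replicate 2, where 47.0% were. With each library scaled to the same total it was 7 over all genes and 7 over nuclear genes, as for 97.0% and 91.2% of all genes.

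**Figure D1:**
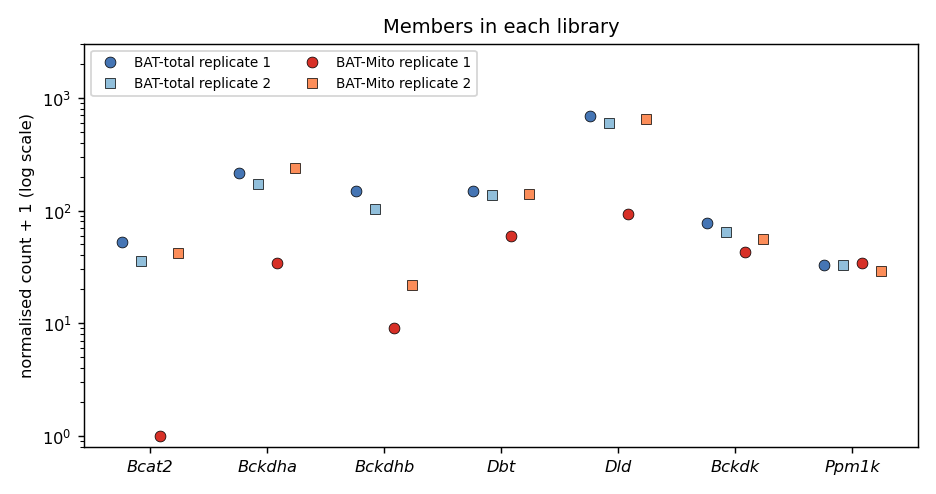
Normalised count plus 1 on a log axis for each of the 7 members, with 1 point per library. Bckdhb is low in both BAT-Mito libraries (8 and 21, against 148 and 103), Dld and Bckdha only in BAT-Mito replicate 1, and Ppm1k is near 30 in all 4.

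Of the E1 subunits, Bckdhb was low in both BAT-Mito libraries and Bckdha in replicate 1. Bckdha, which carries the regulatory phosphorylation site, had 33 and 235 normalised counts in BAT-Mito (4 and 34 reads) and 213 and 172 in BAT-total. The 2 BAT-Mito libraries lay on either side of both BAT-total libraries. Its log2 fold change was -1.10 (SE 1.15, limma adjusted p 0.569), with 0.29 without BAT-Mito replicate 1 and -2.50 (adjusted p 0.0233) without replicate 2.

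Bckdhb, the partner of Bckdha in E1, had 8 and 21 normalised counts in BAT-Mito (1 and 3 reads) and 148 and 103 in BAT-total. It was low in both BAT-Mito libraries and the groups did not overlap. Relative to the BAT-total mean the level was 0.0663 in replicate 1 (95% exact Poisson interval 0.00168 to 0.369) and 0.165 in replicate 2 (0.0340 to 0.482), where the intervals cover counting error in BAT-Mito only. Both libraries were at or under the limit of 3 reads, so that the fitted fold is imprecise. The log2 fold change was -3.15 (SE 0.67), the lowest of the 7 in this fit, and 12.4% of tested genes were at or below it. The rank depended on the fit, since with a pseudocount of 0.5 Bcat2 was lower (-3.24 against -3.20). The limma adjusted p was 0.171, edgeR gave -3.04 with an adjusted p of 0.0332, and DESeq2 gave -3.07 with 0.0379. The call thus depended on the tool. It also depended on which library was left out, although the log2 fold change stayed negative. That was -2.50 without BAT-Mito replicate 1, -3.79 without BAT-Mito replicate 2, and -2.89 and -3.40 without BAT-total replicate 1 and 2. With the replicate number as a block it was -3.15 with a limma adjusted p of 0.410, in a fit that called 0 of all genes. Bckdhb was the single member whose exact Poisson interval lay below both BAT-total values in each BAT-Mito library, as for 11.6% of all tested genes. The genes behind that share include those too low in BAT-total to meet the criterion. In replicate 1 that was also so for Bcat2, Bckdha, Dbt and Dld, and in replicate 2 for no other member.

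Dbt, the E2 core that holds the lipoyl groups, had 58 and 138 normalised counts in BAT-Mito (7 and 20 reads) and 148 and 136 in BAT-total. Replicate 2 fell between the BAT-total libraries and replicate 1 below them. The log2 fold change was -0.66 (SE 0.63, limma adjusted p 0.541), with -0.04 without BAT-Mito replicate 1 and -1.28 (adjusted p 0.0287) without replicate 2.

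Dld, the E3 flavoprotein that the complex shares with the pyruvate and oxoglutarate dehydrogenases, had the highest counts of the 7. They were 92 and 649 in BAT-Mito (11 and 94 reads) and 695 and 596 in BAT-total. Replicate 2 again fell between the BAT-total libraries, and replicate 1 was far below them. The log2 fold change was -1.39 (SE 1.15, limma adjusted p 0.499), with 0.012 without BAT-Mito replicate 1 and -2.79 (adjusted p 0.0183) without replicate 2.

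The regulators rest on 4 to 8 BAT-Mito reads each. Bckdk, the kinase, had 42 and 55 normalised counts in BAT-Mito (5 and 8 reads) and 77 and 64 in BAT-total. Both BAT-Mito libraries were below both BAT-total libraries, by less than the counting error of the reads. The log2 fold change was -0.54 (SE 0.44, limma adjusted p 0.497), and its sign turned with median ratios over nuclear genes (0.11). Ppm1k, the phosphatase, had 33 and 28 normalised counts in BAT-Mito (4 and 4 reads) and 32 and 32 in BAT-total. All 4 libraries were alike, with a log2 fold change of -0.07 (SE 0.41, limma adjusted p 0.912) that turned to 0.27 with TMM and 0.56 with median ratios. With 4 reads per library, the exact Poisson interval of its ratio to the BAT-total mean ran from 0.283 to 2.66 in replicate 1 and from 0.235 to 2.21 in replicate 2.

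Bcat2, which acts ahead of the complex, had 0 and 41 normalised counts in BAT-Mito (0 and 6 reads) and 52 and 35 in BAT-total. It was without reads in replicate 1, and in replicate 2 it fell between the BAT-total libraries. The log2 fold change of -2.75 (SE 2.12, limma adjusted p 0.477) rests on the library without reads. It was -0.06 without BAT-Mito replicate 1 and -5.45 (limma adjusted p 0.0189) without replicate 2, and -0.94 with edgeR.

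A ratio within a library does not depend on how the libraries were scaled, so the composition of the 7 members was compared next. Dld took 50.9% and 52.4% of the member sum in BAT-total, 34.4% of the reads in BAT-Mito replicate 1 (95% Wilson interval 20.4 to 51.7%) and 55.6% in replicate 2 (48.1 to 62.9%). Bckdha took 15.6% and 15.1% in BAT-total, 12.5% (4.97 to 28.1%) in BAT-Mito replicate 1 and 20.1% (14.8 to 26.8%) in replicate 2. For Dld and Bckdha each interval held at least 1 of the BAT-total shares. Bckdhb took 10.8% and 9.05% in BAT-total but 3.13% (0.554 to 15.7%) and 1.78% (0.606 to 5.09%) in BAT-Mito. Replicate 2, with 169 member reads against 32 in replicate 1, excluded both BAT-total shares. At the BAT-total shares, 15.3 to 18.3 of its 169 reads would have fallen on Bckdhb, and 3 did. In replicate 1 that range was 2.90 to 3.47 reads, and 1 was seen, which so few reads cannot separate.

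The other shares differed from BAT-total in BAT-Mito replicate 1 only, or not beyond counting error. Dbt took 21.9% (11.0 to 38.8%) and 11.8% (7.79 to 17.6%) in BAT-Mito and 10.8% and 12.0% in BAT-total. The kinase Bckdk took 15.6% (6.86 to 31.8%) in BAT-Mito replicate 1 and 4.73% (2.42 to 9.06%) in replicate 2, against 5.64% and 5.62% in BAT-total. The phosphatase Ppm1k took 12.5% (4.97 to 28.1%) and 2.37% (0.924 to 5.93%), against 2.34% and 2.81%. For both regulators the interval of replicate 1 lay above the BAT-total shares and that of replicate 2 included them. Bcat2 had 0 of 32 reads in replicate 1, which allows a share of up to 9.38% at a limit of 3 reads (Wilson upper limit 10.7%), 3.55% (1.64 to 7.53%) in replicate 2, and 3.81% and 3.08% in BAT-total. Between the 2 BAT-Mito libraries, Fisher's exact test of each member against the other 6 gave two-sided p-values of 0.0236 for Ppm1k, 0.0337 for Dld and 0.0375 for Bckdk. Adjusted over the 7 tests each was 0.0876, and 0 members passed. These tests compare those libraries and not conditions.

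**Figure D2:**
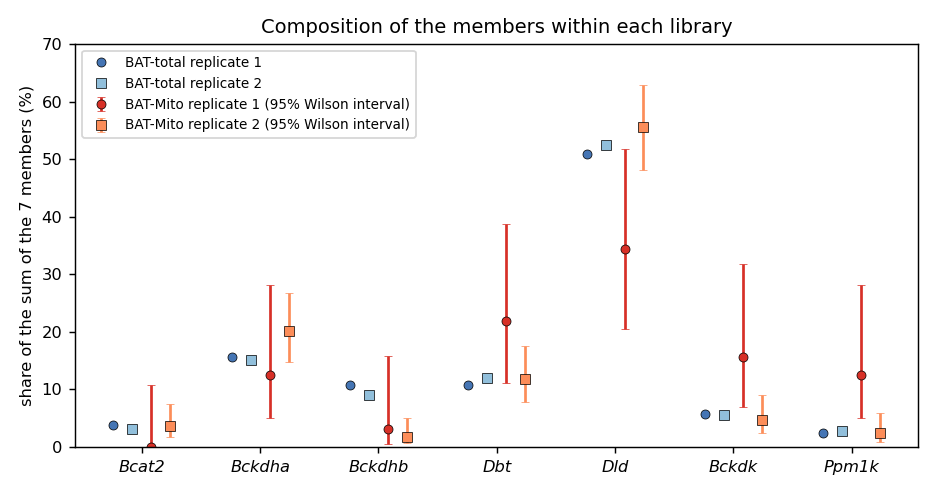
Share of each member in the sum of the 7 (%), per library, from reads with 95% Wilson intervals in BAT-Mito and from normalised counts in BAT-total. The BAT-Mito replicate 2 interval of Bckdhb (0.606 to 5.09%) lies under both BAT-total points (10.8% and 9.05%), and the replicate 1 intervals of Bckdk and Ppm1k lie above theirs.

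Within E1 the balance leaned to Bckdha in both BAT-Mito libraries. The ratio of normalised counts of Bckdha to Bckdhb was 4.13 and 11.2 in BAT-Mito and 1.44 and 1.67 in BAT-total. Bckdha thus made up 80.0% of 5 E1 reads in BAT-Mito replicate 1 (95% Wilson interval 37.6 to 96.4%) and 91.9% of 37 in replicate 2 (78.7 to 97.2%), against 59.0% and 62.5% of the E1 sum in BAT-total. The interval of replicate 2 excluded both BAT-total shares and that of replicate 1 did not. Both replicates together held 38 Bckdha and 4 Bckdhb reads, and Fisher's exact test between the replicates gave a two-sided p of 0.410. The mean log2 ratio was 2.04 higher in BAT-Mito, with a two-sided exact permutation p of 0.333, the smallest that 2 against 2 libraries allow. It was 2.79 without BAT-Mito replicate 1, 1.29 without replicate 2 and 1.53 with a pseudocount of 10.

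The other 5 ratios examined moved less or differed between the BAT-Mito libraries. The normalised count ratio of Dld to Dbt was 1.59 and 4.70 in BAT-Mito and 4.70 and 4.38 in BAT-total. Bckdk to Ppm1k, kinase over phosphatase, was 1.27 and 1.96 in BAT-Mito and 2.41 and 2.0 in BAT-total. The mean log2 ratio, BAT-Mito minus BAT-total, was -0.47, on 9 and 12 BAT-Mito reads for both genes together (-0.16 without BAT-Mito replicate 1, -0.77 without replicate 2). Dbt to Bckdha was 1.76 and 0.587 against 0.695 and 0.791, and Bckdk to Bckdha 1.27 and 0.234 against 0.362 and 0.372. For these 2 ratios the BAT-Mito libraries lay on either side of BAT-total. Bcat2 to Bckdha was 0 (0 against 4 reads) and 0.174 in BAT-Mito and 0.244 and 0.203 in BAT-total, and the mean log2 ratio of values plus 1 was -1.65, BAT-Mito minus BAT-total. That value is set by the library without Bcat2 reads, since it was -0.35 without BAT-Mito replicate 1, -2.95 without replicate 2 and -0.25 with a pseudocount of 10. Over the 6 ratios the exact permutation p-values were 0.333 or 1, and the adjusted values 0.667 or 1.

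Per kilobase of exons, which allows genes to be compared, BAT-total ordered the members as Dld, Bckdha, Bckdhb, Dbt, Bckdk, Bcat2 and Ppm1k. The levels were 175 ± 19.0, 101 ± 15.3, 69.5 ± 17.6, 42.4 ± 2.53, 19.1 ± 2.49, 11.2 ± 3.08 and 5.31 ± 0 normalised counts per kb (mean ± SD, n = 2). No neighbours in this order overlapped between their 2 libraries. In BAT-Mito the means were 101 ± 107 for Dld, 70.6 ± 75.2 for Bckdha, 29.3 ± 16.9 for Dbt, 13.1 ± 2.49 for Bckdk, 8.03 ± 5.09 for Bckdhb, 5.26 ± 7.43 for Bcat2 and 5.06 ± 0.587 for Ppm1k. Bckdhb held the third place in BAT-total and the fifth in BAT-Mito, but with 1 and 3 reads its place in BAT-Mito is not fixed, and by coding length it was below Dbt in BAT-total replicate 2 (88.0 against 94.1 per kb). In BAT-Mito all neighbours but Dbt and Bckdk overlapped. If the exon bases that Bckdha shares with B3gnt8 were not counted, Bckdha would stand above Dld in BAT-total at 293 and 236 per kb.

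The sister complexes were laid beside it at the same scale. The ratio of E1α to E1β per kb was 3.92 and 10.6 in BAT-Mito and 1.37 and 1.59 in BAT-total for the BCKDH complex. For the pyruvate dehydrogenase (PDH), with Pdha1 and Pdhb, it was 1.49 and 2.73 in BAT-Mito and 3.42 and 2.57 in BAT-total. The BCKDH ratios did not overlap between the groups and the PDH ratios did, but the difference between the complexes was not tested. The BCKDH ratio of BAT-Mito replicate 1 rests on 5 reads, 1 of them of Bckdhb, and its counting interval included the BAT-total shares. Dbt made up 25.2% and 16.9% of the 3 E2 transcripts (Dbt, Dlat and Dlst, per kb) in BAT-Mito and 15.6% and 14.7% in BAT-total. Dld relative to the sum of these 3 was 0.363 and 0.724 in BAT-Mito and 0.664 and 0.587 in BAT-total, so that the shared E3 was low against its E2 partners in replicate 1 alone.

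**Figure D3:**
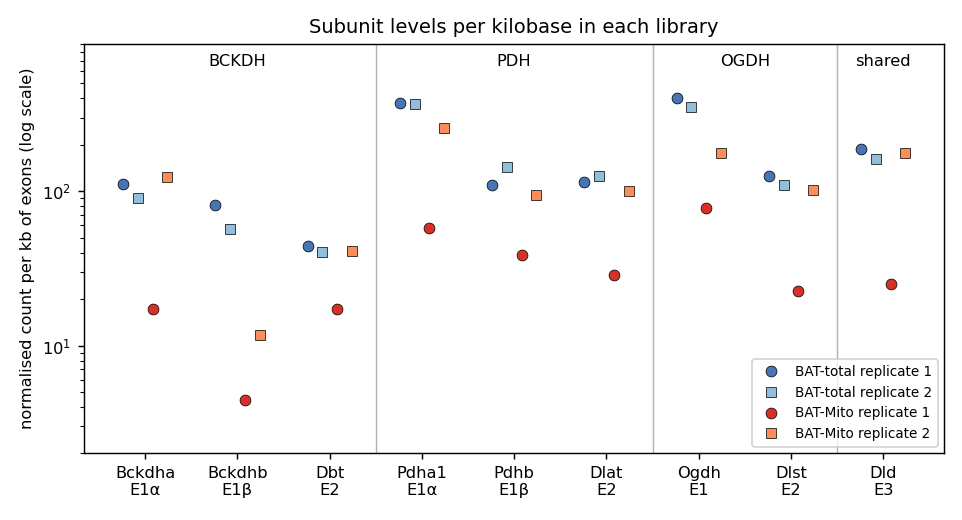
Normalised counts per kb of exons on a log axis for the E1, E2 and E3 transcripts of the BCKDH, PDH and oxoglutarate dehydrogenase (OGDH) complexes, with 1 point per library. All 9 are low in BAT-Mito replicate 1, and in replicate 2 Bckdhb (11.6 against 82.0 and 57.1 per kb), Ogdh (177 against 404 and 349) and Pdha1 (259 against 375 and 370) are the farthest below their BAT-total values.

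The 2 BAT-Mito libraries differed from each other more than the BAT-total libraries did. On the log2(normalised count + 1) scale, replicate 1 minus replicate 2 was -2.81 for Dld, -2.80 for Bckdha, -1.29 for Bckdhb, -1.24 for Dbt, -0.38 for Bckdk and 0.23 for Ppm1k, and -5.39 for Bcat2. The signed median over all tested genes was 0.00, which does not give how far single genes differed between the replicates. In BAT-total the same differences ran from 0.00 for Ppm1k to 0.56 for Bcat2. The sum of the brown adipocyte markers moved the same way, with 2938 and 8226 normalised counts in BAT-Mito and 13926 and 12466 in BAT-total. The member sum came to 9.05% and 14.2% of that marker sum in BAT-Mito and 9.80% and 9.13% in BAT-total.

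The members were also set against the brown adipocyte markers. Per 1000 normalised counts of marker sum, a scale chosen after the data had been seen, Bckdhb was at 2.72 and 2.55 in BAT-Mito and at 10.6 and 8.26 in BAT-total. It was below BAT-total in both replicates, as were 15.6% of all tested genes on this scale. Dbt was at 19.7 and 16.8 against 10.6 and 10.9, Bckdk at 14.3 and 6.69 against 5.53 and 5.13, and Ppm1k at 11.2 and 3.40 against 2.30 and 2.57. These 3 lay above BAT-total in both replicates, as did 28.2% of all tested genes, and the Ppm1k values rest on 4 reads each. Dld was at 31.3 and 78.9 against 49.9 and 47.8, Bckdha at 11.2 and 28.6 against 15.3 and 13.8, and Bcat2 at 0 and 4.98 against 3.73 and 2.81, each with BAT-total between the 2 BAT-Mito libraries. With this scaling limma called 0 genes of all 8215.

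The rest of the pathway was described by lists. Of the later enzymes of leucine, isoleucine and valine breakdown, 17 were tested and limma called 0 higher and 0 lower, with a median log2 fold change of -0.78 (-0.20 without BAT-Mito replicate 1, -1.02 without replicate 2). Their range ran from Auh, a hydratase of leucine breakdown, at 0.14 to Mmut, the methylmalonyl-CoA mutase, at -1.98. Mmut had 25 and 97 normalised counts in BAT-Mito and 194 and 201 in BAT-total. Both BAT-Mito libraries lay below both BAT-total libraries for 10 of the 17, against 52.1% of all tested genes.

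Of the genes for amino acid entry and the cytosolic aminotransferase, 6 were listed and 4 were tested, with 0 calls and a median log2 fold change of -0.74 (-1.81 without BAT-Mito replicate 1, -0.38 without replicate 2). The extremes were transporter genes without reads in BAT-Mito replicate 2. Slc7a8 had 50 and 0 normalised counts in BAT-Mito and 6 and 1 in BAT-total (log2 fold change 0.93, 2.71 with edgeR), and Slc3a2 had 33 and 0 against 49 and 69 (-3.34, -1.94 with edgeR). For Slc25a44, the mitochondrial carrier that imports branched-chain amino acids, normalised counts were 42 and 21 in BAT-Mito and 65 and 79 in BAT-total, with a log2 fold change of -1.24 (limma adjusted p 0.324). It is outside the rule for named genes and was chosen after its values were seen.

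For the 7 tested subunits of the PDH and OGDH complexes the median log2 fold change was -1.58 (-0.53 without BAT-Mito replicate 1, -2.37 without replicate 2), with 0 calls, from Pdhb at -1.05 to Mrps36 at -3.52 (-2.21 with edgeR), which had 0 reads in BAT-Mito replicate 1. All 7 lay below both BAT-total libraries in both BAT-Mito libraries, against 52.1% of all tested genes. The 6 tested PDH kinases and phosphatases had a median of -1.18 (-0.57 without BAT-Mito replicate 1, -1.79 without replicate 2) and 0 calls, from Pdp2 at -0.43 to Pdk1 at -1.81. Pdp1, with 0 reads in BAT-Mito replicate 1, was at -0.44 with limma and 1.41 with edgeR, where it would head the list. The 2 tested genes of lipoic acid synthesis and transfer, which furnish the E2 cofactor, were Lipt1 and Lias, with 0 calls. Their median log2 fold change was -2.43 (-0.24 without BAT-Mito replicate 1, -4.62 without replicate 2). Both had 0 reads in BAT-Mito replicate 1. In replicate 2 Lias was also below both BAT-total libraries, and Lipt1 was above both. Lipt1 had 0 and 28 normalised counts in BAT-Mito and 13 and 12 in BAT-total (log2 fold change -1.33, 0.23 with edgeR), and Lias had 0 and 14 against 44 and 44 (-3.54, -2.51 with edgeR). With edgeR, too, 0 genes of these 5 lists were called. The median of all tested genes, -1.23, lay within the range of these list medians.

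**Figure D4:**
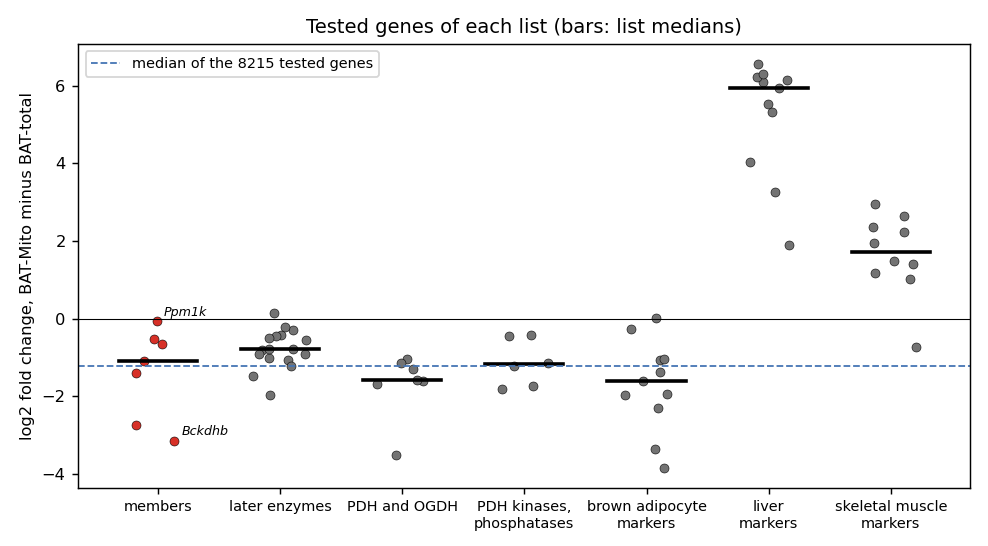
log2 fold change (BAT-Mito minus BAT-total) of each tested gene in 7 lists, with bars for list medians and a dashed line for the median of all tested genes (-1.23). The members spread from Bckdhb (-3.15) to Ppm1k (-0.07) around that line, and the hepatocyte and muscle markers lie mostly above 0.

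The genes whose profile over the 4 libraries was most like the mean profile of the members were Gpbp1l1, Cfl1, Decr1, Mtch1 and Arl4a. The measure was the root mean square distance of centred log2(normalised count + 1) values among 2481 genes with a mean of at least 50, and it ran from 0.0420 for Gpbp1l1 to 0.0733 for Arl4a. Decr1, a mitochondrial enzyme of fatty acid oxidation, had 75 and 276 normalised counts in BAT-Mito and 460 and 357 in BAT-total. The members themselves were farther from their mean profile, from 0.30 for Dld to 1.40 for Bcat2.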

How the data were processed

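According to the submitters' processing notes, single-end reads were trimmed with Trimmomatic 0.39, aligned to mm10 (GRCm38) with STAR 2.7.10a, counted per gene with featureCounts 2.0.2 and normalised with DESeq2 1.30.1. The methods of the study add that reads of several genes or positions were left out and that fragmentation time was adjusted for mitochondrial RNA, so that library preparation may differ between the groups. The deposited values are a signal, counts that the authors divided by a size factor for each library and rounded. Whole reads were recovered for 100.0% of the BAT-Mito values up to 2000 reads, within 1 unit. Genes with a mean of at least 10 were compared as log2(value + 1) with limma 3.58.1 and Benjamini-Hochberg adjustment over 8215 genes. On this scale the fold changes of low genes can be understated, or overstated where 1 BAT-Mito library had 0 reads, as for Bcat2. edgeR 4.0.16 and DESeq2 1.42.0 were run on reads as alternatives, with the BAT-total values taken as reads. Other alternatives were the pseudocount, the filter, the scaling, the replicate number as a block, gene length and leaving out each library. Lengths, positions and sequences are from GENCODE M21, in which 99.1% of the genes had the same coordinates. Similar transcripts were sought with BLAST 2.17.0 at 90% identity over at least 50 bp. Wilson and Poisson intervals, the limit of 3 reads and Fisher's exact tests cover counting error only. Depth was 26288871 and 24910434 reads in BAT-Mito and is unknown in BAT-total. All 7 members were named, and of every other pathway list the called genes or, without a call, the highest and the lowest gene, together with the 5 genes most like the members. The members and lists were chosen with earlier results of these data known.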

Additional observations from a re-analysis of the deposited data

How the results depend on the processing

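The number of members called lower, 0 with limma as deposited, was 7 with CPM over all genes and 7 with CPM over nuclear genes, where 97.0% and 91.2% of all tested genes were called lower and the members' median log2 fold change moved to -5.77 and -4.44. It was 1 (Bckdhb) with edgeR and 1 with DESeq2. Leaving out 1 library gave 0 to 5 members called lower and medians from -2.50 to -0.06. Without BAT-Mito replicate 1 it was Bckdhb alone (median -0.06, 41.1% of all genes lower) and without BAT-Mito replicate 2 it was 5, namely Bcat2, Bckdha, Bckdhb, Dbt and Dld (median -2.50, 47.0% of all genes lower). In these fits the lone library was assumed to vary like BAT-total. Over the 4 such fits Dld ran from -2.79 to 0.012 and Ppm1k from -0.19 to 0.043. Without BAT-total replicate 1, or without BAT-total replicate 2, limma called 0 of all genes (500 and 493 at an unadjusted p under 0.05). The median of all tested genes was -1.23 as deposited, -0.90 with TMM, -0.62 with median ratios, -4.25 and -4.01 with the CPM scalings and 0.10 relative to brown adipocyte markers.

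Single members changed sign without passing the threshold. Ppm1k was 0.27 with TMM, 0.56 with median ratios, 1.31 relative to brown adipocyte markers and 0.043 without BAT-Mito replicate 2. Bckdk was 0.11 with median ratios and 0.86 relative to the markers. Relative to the markers Bckdha was 0.30, Dbt 0.75 and Dld 0.025, and without BAT-Mito replicate 1 Bckdha was 0.29 and Dld 0.012. The reversals by scaling went with the shift of all genes. Bckdhb was negative under all alternatives run, from -6.06 to -1.78, with adjusted p-values from 4.83e-06 to 0.844. The marker scaling and the exon length without shared bases were chosen after seeing the data.

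With the replicate number as a block, limma called 0 members and 0 of all genes, 944 of them at an unadjusted p under 0.05, and the adjusted p of Bckdhb was 0.410. The numbers pair the samples by number only, and their deviations correlated at 0.112 over genes. Bcat2 and Ppm1k were not tested with a mean of at least 50, and the ratio of Bcat2 to Bckdha had no value without a pseudocount. The depth of BAT-Mito limits all members under about 10 reads. Length choices moved 9 of the 12 per-kb ratios of gene pairs by more than 1 SD.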

Other observations

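Bckdhb is the longest gene among the members. Over all tested genes, the 1185 that span at least 100000 bp had a median log2 fold change of -1.45, and the 7030 shorter ones had -1.18. The share called lower by limma was 4.64% and 4.37%. Whether gene length bears on Bckdhb was not tested.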
